A study of Mus musculus with 139 samples.

Results

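Levels of 6 genes used as markers of the mesothelium were followed in mouse lung after aspiration of multi-walled carbon nanotubes (MWCNT), crocidolite asbestos or dispersion medium (DM). The genes, Msln, Wt1, Upk3b, Upk1b, Lrrn4 and Gpm6a, were chosen by name as mesothelial genes, and are 6 of the 22180 genes measured by a feature paired with a single symbol. Each had 1 such feature on the array. Male mice written as C57BL/J6, obtained at 7 weeks of age, received crocidolite at 120 µg, DM alone, or MWCNT at 1, 10, 40 or 80 µg as 1 droplet behind the tongue. Both fibres were suspended in DM, a buffered saline with glucose, mouse albumin and a surfactant phospholipid, so every group received it. Whole lung was taken 1, 6 or 12 months later, which gives 18 groups of 8 mice, except 5 with crocidolite at 1 month, 7 with crocidolite at 12 months and 6 with 1 µg MWCNT at 12 months. The study asked how inflammation, fibrosis and gene expression changed with MWCNT dose over a year, with crocidolite as a fibre for comparison.

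The mesothelium is a thin sheet of flat cells that covers the lung surface and lines the chest wall. It carries keratins like an epithelium and Wt1 like the mesoderm it comes from, and makes a lubricating fluid rich in hyaluronan. Long rigid fibres that reach the pleura, asbestos above all, can cause pleural plaques and mesothelioma, the cancer of these cells, and mesothelin is used as a marker of that cancer. In whole lung these cells are a small part of the tissue, and a change in the number of cells and a change in RNA per cell cannot be told apart.

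A few arrays stood apart. The 10 arrays that correlated least with the others had median correlations down to 0.918, against up to 0.974 for other arrays. In 19 arrays genes of skeletal muscle (17 arrays), squamous epithelium (9) or adipose tissue (2) were far above the rest. Some titles hold the word replacement, whose meaning the labels do not give, and values within the arrays with and without it are given beside the main Msln and Upk1b results where both subsets allow them. One mouse (1 µg, 1 month) had 2 arrays that differed in Msln (5.83 and 7.00) and Upk3b (7.27 and 8.18) but little in Gpm6a (8.7 and 8.59). They were averaged, as the label gives a single mouse. The alveolar type 2 genes, which mark lung, had a mean log2 level between 10.95 and 11.63 in every mouse.

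The 6 genes varied together from mouse to mouse. After subtraction of each group's mean, Upk3b and Lrrn4 correlated most closely over all mice of the 18 groups (Pearson r = 0.889, Spearman rho = 0.88, permutation p = 1e-05 for both). Upk3b encodes uroplakin 3B, a membrane protein of mesothelial cells, and Lrrn4 a membrane protein of the neuronal leucine-rich repeat family. Msln, which encodes the surface glycoprotein mesothelin, followed Upk3b (r = 0.871, rho = 0.854) and Lrrn4 (r = 0.839, rho = 0.825) almost as closely. Gpm6a, a membrane glycoprotein of the proteolipid protein family, correlated with Upk3b at 0.735 (rho = 0.706) and with Msln at 0.722 (rho = 0.695). Wt1, a zinc finger transcription factor, correlated with Upk3b at 0.641 (rho = 0.657), and Upk1b, a tetraspanin of the uroplakin family, with Lrrn4 at 0.558 (rho = 0.513). The weakest of the 15 pairs was Wt1 with Gpm6a (r = 0.301, permutation p = 0.00135, rho = 0.325, permutation p = 0.00025). All 15 pairs passed Benjamini-Hochberg adjustment, with the largest adjusted p at 0.00135. A p of 1e-05 is the smallest that 100000 permutations within groups can give. Without the 2 mice farthest from the median of the first gene, r was 0.879 for Upk3b and Lrrn4 and 0.86 for Msln and Upk3b, and 0.332 for Wt1 and Gpm6a. Within single groups Msln and Upk3b correlated at 0.461 to 0.972, lowest with 80 µg at 6 months.

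**Figure D1:**
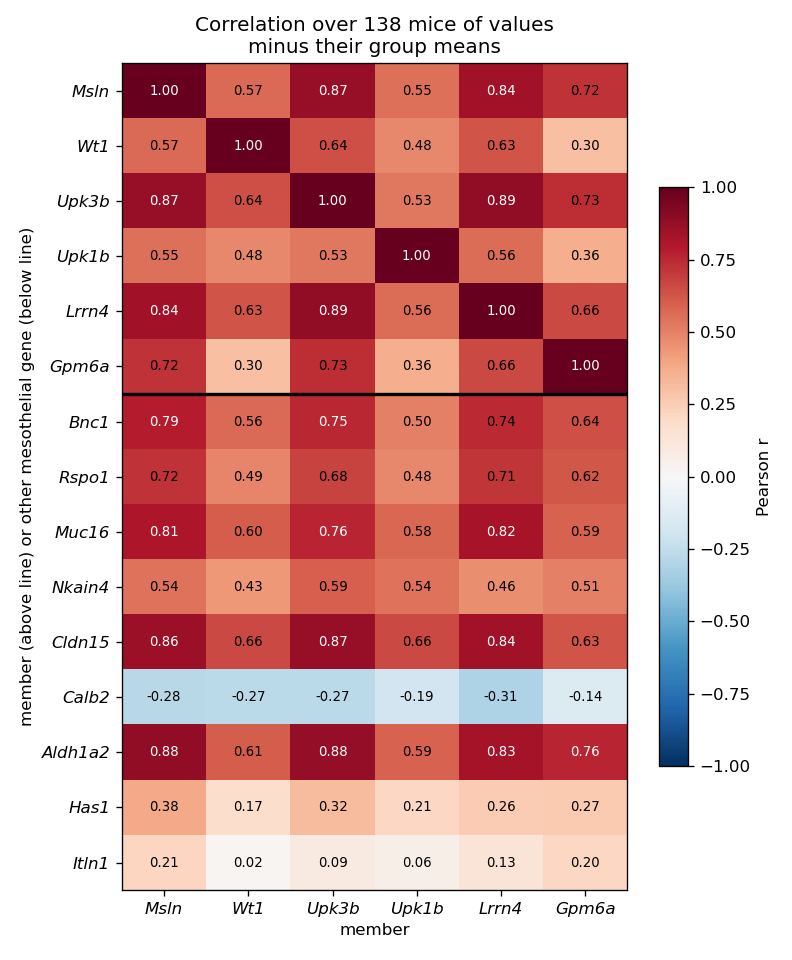
Pearson correlation over all mice of log2 values minus group means, with the 6 members in columns and the members (above the line) and 9 other mesothelial genes (below) in rows. Msln, Upk3b and Lrrn4 share r of 0.839 to 0.889, Wt1 and Upk1b correlate less with them, and Calb2, Has1 and Itln1 are the 3 rows with r under 0.4 throughout.

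The upstream sequences of the 2 genes of the closest pair are shown because these genes move together across mice. RefSeq (GRCm38.p6) gave promoters for 3 of the 6 members, and the 250 bases before the start were searched on both strands for the letters GGAATG, the core bound by TEAD factors of the Hippo pathway, TGANTCA, bound by AP-1, and GTGGGNG, a core bound by WT1. The Upk3b stretch is chr5:136038246-136038495 on the plus strand and the Lrrn4 stretch chr2:132880863-132881112 on the minus strand, each printed 5′ to 3′ up to the start, with capitals at the TEAD letters or their reverse complement.
Upk3b: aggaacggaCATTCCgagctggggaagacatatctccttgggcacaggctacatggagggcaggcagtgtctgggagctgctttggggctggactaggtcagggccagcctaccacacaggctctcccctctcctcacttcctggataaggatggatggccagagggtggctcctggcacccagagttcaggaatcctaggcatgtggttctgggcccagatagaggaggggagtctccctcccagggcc
Lrrn4: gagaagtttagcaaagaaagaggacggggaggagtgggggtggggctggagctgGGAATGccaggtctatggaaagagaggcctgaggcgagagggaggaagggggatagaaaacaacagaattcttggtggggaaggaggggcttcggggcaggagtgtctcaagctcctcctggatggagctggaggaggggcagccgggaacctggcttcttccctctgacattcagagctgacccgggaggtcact
The TEAD letters lie near the far end of the Upk3b stretch, 241 bases before the start, and in the outer part of the Lrrn4 stretch, and 12.6% of 32851 RefSeq promoters of that length hold them. Lrrn4 also holds the WT1 core letters, without overlap and farther from its start, as do 28.1% of promoters. The AP-1 letters, in 6.75% of promoters, are in neither window. Of the 2 Gpm6a promoters 1 holds the TEAD letters, and neither holds the others. A match is a stretch of letters and was not measured as a bound site.

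Msln was the member that was higher after both fibres. With 80 µg MWCNT it was 0.64 ± 0.16 (SE) above DM on the log2 scale over the mean of the 3 times, 1.56-fold (limma adjusted p = 0.00322), and with crocidolite 0.47 ± 0.17 above DM, 1.38-fold (adjusted p = 0.0397). All 6 members were tested among the 22180 genes, with an adjusted p under 0.05 counted as past the test. In these 2 comparisons 5.63% and 16.2% of all genes passed, against 1 of 6 members with 80 µg (Msln) and 2 of 6 with crocidolite (Msln higher, Upk1b lower).

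One month after 80 µg Msln ran from 6.37 through a median of 7.01 to 7.53 in exposed lungs, against 5.45, 6.43 and 7.27 in DM lungs. At 6 months the values were 6.41, 6.90 and 7.68 with 80 µg, against 5.22, 6.15 and 6.55 in DM lungs. At 12 months they were 5.78, 6.57 and 7.25 with 80 µg, against 5.18, 5.92 and 6.72 in DM lungs. The groups thus overlapped at each time, least at 6 months, where 6 of 8 exposed lungs were above every DM lung and 8 of 8 above the DM median. At 1 month 2 of 8 and at 12 months 3 of 8 were above every DM lung. The differences were 0.56 ± 0.27 at 1 month (adjusted p = 0.46), 0.92 ± 0.27 at 6 months (adjusted p = 0.0795) and 0.45 ± 0.27 at 12 months (adjusted p = 0.561), so that no single time passed the test. The 12-month difference turned with the arrays, at -0.16 ± 0.28 in those with the word replacement (adjusted p = 1) and 1.15 ± 0.38 in those without it (adjusted p = 0.115). At 1 month it was 0.65 with and 0.40 without the word (adjusted p = 0.755 and 0.94), and at 6 months 0.79 without it (adjusted p = 0.424). In arrays without the word the mean over the 3 times was 0.78 ± 0.20 (adjusted p = 0.0091), and arrays with it, which hold 1 DM lung at 6 months, gave no value for 6 months or for the mean.

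With crocidolite at 1 month the 5 lungs had Msln at 6.56, 7.63, 6.52, 5.80 and 6.05, within the DM range but for the second. At 6 months the lowest, median and highest were 5.43, 6.61 and 7.22 with crocidolite, against 5.22, 6.15 and 6.55 in DM lungs. At 12 months they were 6.08, 6.89 and 7.34 with crocidolite, against 5.18, 5.92 and 6.72 in DM lungs. At 12 months 5 of 7 crocidolite lungs were above every DM lung and 7 of 7 above the DM median. The differences were 0.09 ± 0.31, 0.52 ± 0.27 and 0.79 ± 0.28 at 1, 6 and 12 months (adjusted p = 0.933, 0.357 and 0.0764). A change of the crocidolite difference between 1 and 12 months, at 0.70 ± 0.42, did not pass the test of the interaction (adjusted p = 0.821). In arrays with the word replacement the differences at 1 and 12 months were 0.14 and 0.55, and without it they were 0.15, 0.41 and 0.82 at the 3 times, none past the test. The mean crocidolite difference lost its call in arrays without the word replacement (0.46 ± 0.23, adjusted p = 0.207), without arrays with other tissue (0.485, adjusted p = 0.0654) and when any 1 of 15 mice was left out, the lowest being 0.37 without crocidolite replicate 2 at 1 month (adjusted p = 0.123).

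By dose, Msln passed the test for a slope at 6 months and over the mean of the 3 times. Group means at 6 months were 6.00 ± 0.48 (SD, n = 8) with DM, 6.15 ± 0.50 at 1 µg, 6.27 ± 0.60 at 10 µg, 6.88 ± 0.23 at 40 µg and 6.92 ± 0.41 at 80 µg. The slope was 0.15 ± 0.04 (SE) log2 units per doubling of dose plus 1 µg (limma adjusted p = 0.00576), in a comparison where 1.34% of all genes and 1 of 6 members passed, and 0.136 ± 0.037 in arrays without the word replacement (adjusted p = 0.0471). At 1 month the means were 6.42 with DM and 6.55, 6.85, 6.95 and 6.98 at 1, 10, 40 and 80 µg, with a slope of 0.09 ± 0.04 that did not pass (adjusted p = 0.189). At 12 months the means were 6.03 with DM and 6.045, 6.655, 6.43 and 6.48 at 1, 10, 40 and 80 µg, so that the 10 µg group was the highest of these, and the slope of 0.08 ± 0.04 did not pass (adjusted p = 0.228). Over the mean of the 3 times the slope was 0.107 ± 0.021 (adjusted p = 5.21e-05), past the test for Msln alone among the members, against 8.88% of all genes. The 12-month slope differed between the arrays, at 0.19 ± 0.05 in those without the word replacement (adjusted p = 0.0231) and -0.01 ± 0.04 in those with it (adjusted p = 0.976).

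**Figure D2:**
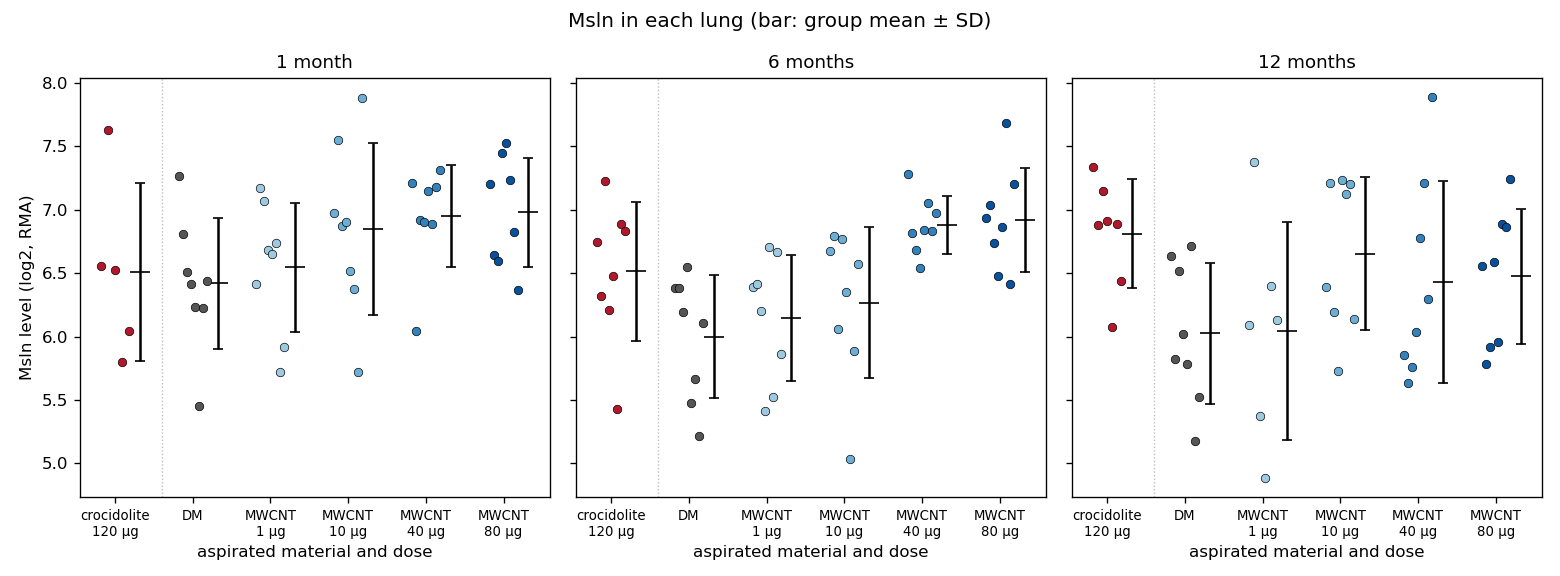
Msln log2 level in each lung at 1, 6 and 12 months, by aspirated material and dose, with points for mice and bars for the group mean ± SD. At 6 months the 40 and 80 µg lungs lie at 6.41 or above while DM lungs reach 6.55, and in every panel groups overlap.

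Ordered by level, the 18 group means of Msln ran from 6.00 (DM, 6 months) to 6.98 (80 µg, 1 month). The largest step between neighbours in that order, 0.159, was below the within-group SD of single mice, 0.554. Steps between neighbours among 18 sorted means are bound to be small, so this describes the order and tests no difference. The largest step was below that SD in the other 5 members too. Their largest steps were 0.11 for Wt1 against an SD of 0.43, 0.141 for Upk3b against 0.597, 0.217 for Upk1b against 0.226, 0.208 for Lrrn4 against 0.607 and 0.19 for Gpm6a against 0.566. Crocidolite at 1 month was the lowest of the 18 groups for Wt1, Upk1b and Lrrn4. The spread itself was wide. The within-group SD of Msln, Upk3b, Lrrn4 and Gpm6a lay between the 96.1 and 97.4 percentiles of all genes, that of Wt1 at 88.2 and that of Upk1b at 20.5.

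Msln was higher relative to Upk3b, the member it follows most closely, with both fibres. The log2 difference Msln minus Upk3b on the same array was compared between groups. What both genes share from mouse to mouse drops out of it only where they change by equal amounts. Upk3b was taken because it has the highest within-group correlation with Msln among the members, and this comparison was added after the values were seen. The level of the difference has no meaning of its own, since the probes differ.

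One month after 80 µg Msln minus Upk3b was between -1.12 and -0.63, against -2.22 to -1.46 in DM lungs. All 8 exposed lungs were above every DM lung, and the means were -0.997 ± 0.161 with 80 µg and -1.714 ± 0.246 with DM (SD, n = 8 each). At 6 months the range was -2.08 to -0.80 with 80 µg, against -2.16 to -1.48 in DM lungs, and 7 of 8 exposed lungs were above every DM lung. At 12 months it was -1.45 to -0.67 with 80 µg, against -2.07 to -1.03 in DM lungs, with 4 of 8 above every DM lung. The mean differences were 0.717, 0.53 and 0.56 at 1, 6 and 12 months (two-sided exact permutation test, adjusted over 6 comparisons, p = 0.000465, 0.00653 and 0.00373). With Aldh1a2, the gene that follows Msln most closely of all, in place of Upk3b, the 80 µg differences were 0.392, 0.238 and 0.332, and the one at 6 months lost its call (exact permutation test, adjusted p = 0.0186, 0.0805 and 0.00901). With Lrrn4 in its place they were 0.535, 0.527 and 0.36, and the one at 12 months lost its call (exact permutation test, adjusted p = 0.00186, 0.0144 and 0.0636).

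With crocidolite Msln minus Upk3b was -1.27 to -0.23 at 1 month, against -2.22 to -1.46 in DM lungs, and 5 of 5 exposed lungs were above every DM lung. At 6 months it was -1.46 to -0.60 with crocidolite, against -2.16 to -1.48 in DM lungs, again with no overlap between the 8 lungs of each group. At 12 months it was -1.05 to -0.27 with crocidolite, against -2.07 to -1.03 in DM lungs, where 6 of 7 exposed lungs were above every DM lung. The mean differences were 0.779, 0.669 and 0.895 (exact permutation test, adjusted p = 0.00117, 0.000465 and 0.000932). At 1 month Msln itself was 0.09 ± 0.31 above DM and Upk3b was at -0.69 ± 0.33, neither past the test, so that most of that difference lay in Upk3b. With Aldh1a2 in place of Upk3b the crocidolite differences were 0.431, 0.464 and 0.853 (exact permutation test, adjusted p = 0.0466, 0.00901 and 0.00186). In arrays with the word replacement the differences at 1 and 12 months were 0.938 and 1.144 with crocidolite and 0.867 and 0.706 with 80 µg. In arrays without it they were 0.559, 0.608 and 0.719 with crocidolite at 1, 6 and 12 months and 0.611, 0.423 and 0.566 with 80 µg. There the calls at 1 and 12 months with crocidolite and at 6 and 12 months with 80 µg were lost (exact permutation test, adjusted p between 0.0643 and 0.0667).

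**Figure D3:**
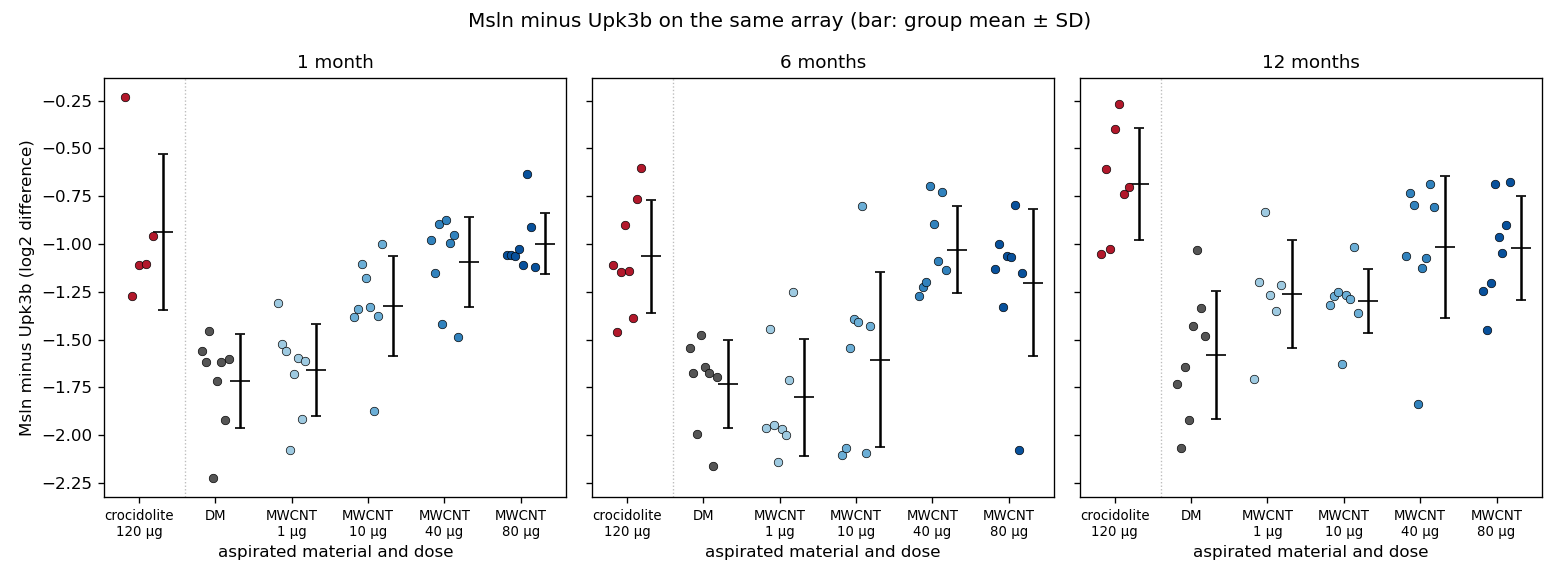
Log2 difference Msln minus Upk3b on the same array in each lung, by material and dose at 1, 6 and 12 months, with points for mice and bars for the group mean ± SD. Crocidolite lungs at 1 and 6 months and 80 µg lungs at 1 month do not overlap with DM lungs, and group means at 1 month run from -1.714 with DM to -0.997 at 80 µg.

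**Figure D4:**
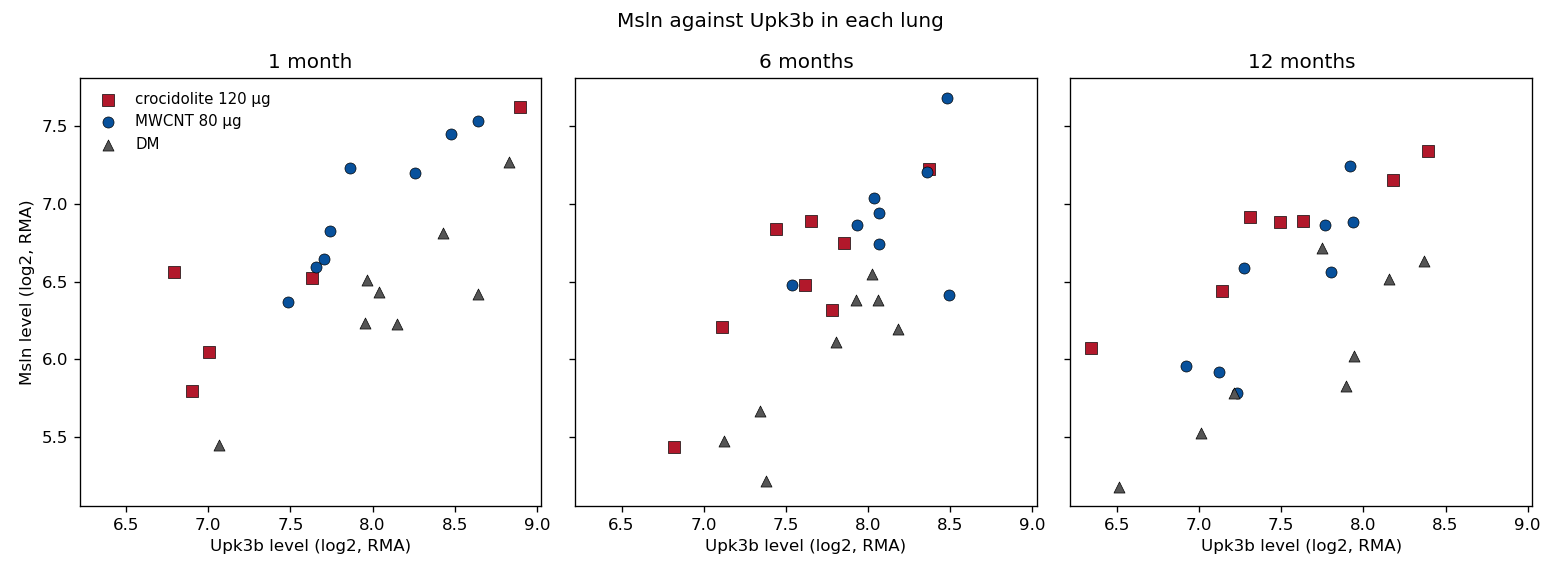
Msln against Upk3b log2 level in each lung for crocidolite (squares), 80 µg MWCNT (circles) and DM (triangles) at 1, 6 and 12 months. At a like Upk3b level the exposed lungs lie above the DM lungs at 1 month, while both genes rise together within each group.

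With the mean of the other 5 members as a covariate in the limma fit, Msln was 0.678 ± 0.129 higher with 80 µg at 1 month (adjusted p = 0.000131) and 0.648 ± 0.13 at 6 months (adjusted p = 0.00102). At 12 months it was 0.476 ± 0.129 higher, which did not pass (adjusted p = 0.0826). With crocidolite the covariate gave 0.773 ± 0.151, 0.676 ± 0.13 and 0.837 ± 0.134 at 1, 6 and 12 months (adjusted p = 9.98e-05, 0.000195 and 1.23e-06). The covariate was measured in the same exposed lungs and is itself open to the exposure.

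Upk1b was the member that was lower, with crocidolite. At 1 month the 5 crocidolite lungs had 8.06, 8.62, 8.34, 7.62 and 8.05, against a lowest, median and highest of 8.40, 8.61 and 8.69 in DM lungs. All but replicate 2, 4 of 5, lay below every DM lung. The difference was -0.45 ± 0.13, a fold of 0.732 (limma adjusted p = 0.0181), in a comparison where 5.76% of all genes and 1 of 6 members passed. Over the mean of the 3 times Upk1b was 0.844-fold of DM with crocidolite (-0.245 ± 0.070, adjusted p = 0.00609). In arrays without the word replacement this mean difference was -0.172 ± 0.091 and lost its call (limma adjusted p = 0.257). At 6 and 12 months the differences were -0.15 ± 0.11 and -0.14 ± 0.12 (adjusted p = 0.592 and 0.634). The 1-month difference lost its call without the 10 arrays of low correlation (-0.35, adjusted p = 0.123), without arrays with other tissue (-0.42, adjusted p = 0.0964), with array weights, with only the groups compared, and without replicate 4 or 5. With the mean of the other 5 members as a covariate it was -0.33 and also lost its call (adjusted p = 0.053), and with the mean of Upk3b and Lrrn4 it was -0.29 (adjusted p = 0.112). It was -0.30 in arrays without and -0.53 in arrays with the word replacement, and neither passed (adjusted p = 0.524 and 0.15).

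Upk3b, Lrrn4 and Gpm6a were also low in crocidolite lungs at 1 month, by amounts that did not pass the test. Upk3b was at 6.79, 8.90, 7.63, 6.90 and 7.00 with crocidolite, against 7.07, 8.09 and 8.83 (lowest, median, highest) with DM, a difference of -0.69 ± 0.33 (adjusted p = 0.273). Lrrn4 was at 4.15, 5.75, 4.87, 3.56 and 4.002 with crocidolite, against 4.13, 5.25 and 6.00 with DM (-0.77 ± 0.34, adjusted p = 0.21). Gpm6a was at 8.18, 9.12, 8.47, 7.08 and 8.06 with crocidolite, against 8.63, 8.95 and 9.37 with DM (-0.75 ± 0.32, adjusted p = 0.182). Replicate 2 was the highest of the 5 crocidolite lungs in every member. Without it Upk3b (-1.05, adjusted p = 0.0447) and Lrrn4 (-1.09, adjusted p = 0.0424) passed beside Upk1b, and Msln was at -0.188. Over the alternatives described below, Upk3b ran from -1.05 to -0.11 and Lrrn4 from -1.09 to -0.23, each called in 1 of 30. Gpm6a ran from -0.98 to -0.24 and was called in 0 of 31. The lowest Lrrn4 and Gpm6a values were in replicate 4, which is among the 10 arrays of low correlation.

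At 6 and 12 months neither crocidolite nor 80 µg MWCNT gave a called difference from DM in a member. With crocidolite 0 of 6 passed limma at 6 months, where 3.68% of all genes did, and 0 of 6 at 12 months, where 6.47% did. At an unadjusted p under 0.05 the members numbered 0 and 1, where 15.1% and 17.4% of all genes had one. With 80 µg 0 of 6 passed at 1, 6 and 12 months, against 1.79%, 0.933% and 0.176% of all genes, and 1, 1 and 0 had an unadjusted p under 0.05, as did 10.1%, 8.38% and 10.8% of all genes. Wt1 with 80 µg was 0.04 ± 0.21, 0.27 ± 0.21 and 0.26 ± 0.21 above DM at the 3 times, and over their mean 0.19 with a 95% confidence interval of -0.05 to 0.43. Upk3b had an interval of -0.29 to 0.38 for the same mean, Lrrn4 of -0.17 to 0.51, Gpm6a of -0.42 to 0.22 and Upk1b of -0.25 to 0.01. With crocidolite the interval of the mean was -0.67 to 0.04 for Upk3b, -0.65 to 0.07 for Lrrn4, -0.70 to -0.03 for Gpm6a (adjusted p = 0.145) and -0.27 to 0.24 for Wt1.

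**Figure D5:**
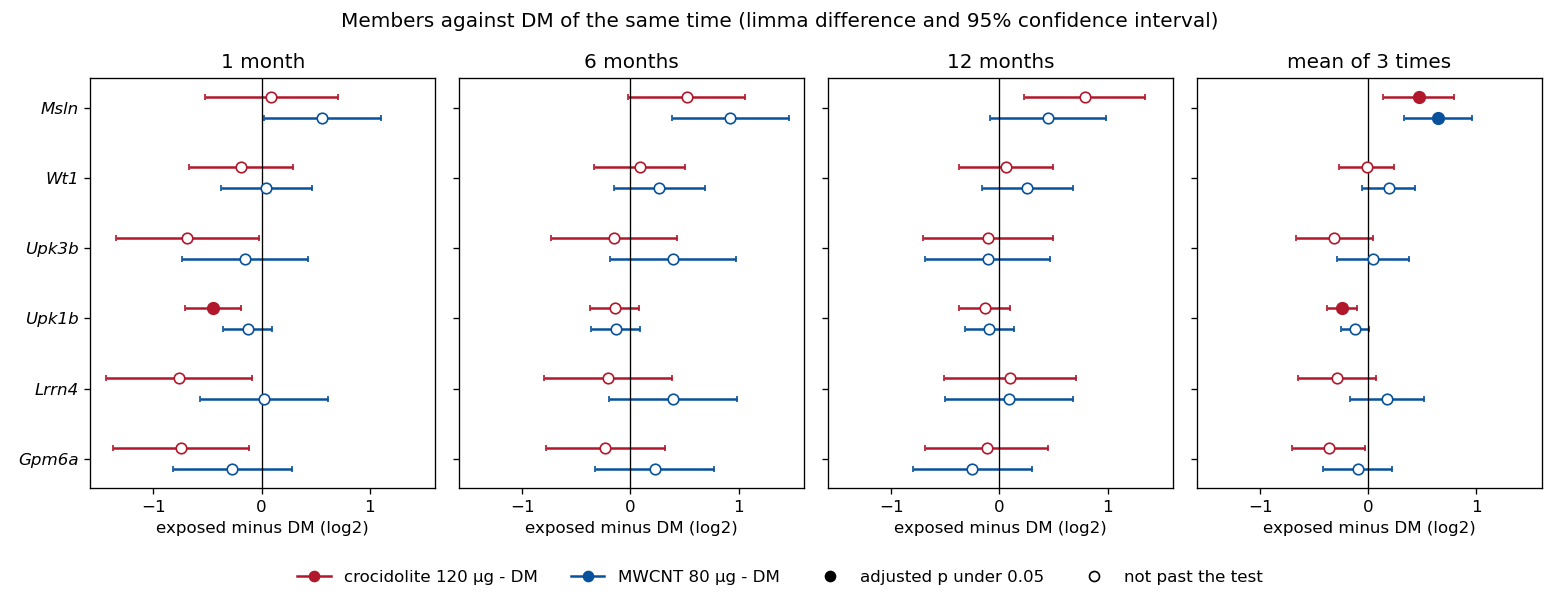
Log2 difference from DM of the same time for the 6 members with crocidolite at 120 µg and MWCNT at 80 µg, at 1, 6 and 12 months and over the mean of the 3 times, with 95% confidence intervals from limma and filled points past the test. Msln is right of 0 in every panel, and filled points are Msln for both fibres and Upk1b for crocidolite in the last panel and Upk1b for crocidolite at 1 month.

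Lower doses gave no called member. At 40 µg 0 of 6 passed at 1, 6 and 12 months, where 0.573%, 0.212% and 0.0361% of all genes did, and 0, 1 and 0 members had an unadjusted p under 0.05 (6.47%, 8.46% and 11.8% of all genes). At 6 months Msln at 40 µg was 0.88 ± 0.27 above DM (adjusted p = 0.226), with 7 of 8 lungs above every DM lung. At 10 µg 0 of 6 passed at the 3 times (0.0225%, 0.00451% and 0% of all genes), with 0, 1 and 2 members at an unadjusted p under 0.05 (4.59%, 8.03% and 4.26% of all genes). At 1 µg the counts were again 0 of 6, against 0% of all genes at each time, with 0, 1 and 0 members at an unadjusted p under 0.05 (1.97%, 5.63% and 2.68% of all genes). The dose slopes at 1 and 12 months called 0 of 6 members, against 3.03% and 1.2% of all genes, with 1 member, Msln, at an unadjusted p under 0.05 in each (12% and 17.8% of all genes). Wt1 had a slope of 0.039 ± 0.016 over the mean of the 3 times, which did not pass (adjusted p = 0.127).

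The 2 fibres were also compared with each other, at doses that differ. For 80 µg MWCNT against crocidolite 0 of 6 members passed at 1, 6 and 12 months, against 0.0902%, 0.0271% and 0.978% of all genes, with 2, 1 and 0 members at an unadjusted p under 0.05 (10.2%, 4.64% and 12.9% of all genes). All 6 members were higher with 80 µg than with crocidolite at 1 and at 6 months in their means, with medians of 0.472 and 0.429 (all genes 0.015 and 0.025). Msln was 0.47 ± 0.31 and 0.40 ± 0.27 higher with 80 µg at these times and 0.34 ± 0.28 lower at 12 months (adjusted p = 0.609, 0.961 and 0.636). The change of an exposure's difference with time was tested for both fibres, 6 and 12 months against 1 month. None of the 6 members passed in the 4 interactions, where 0% and 0.00902% of all genes passed for 80 µg and 0.0271% and 0.0541% for crocidolite. At an unadjusted p under 0.05 there were 0 members in each, against 2.87% to 7.74% of all genes.

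In DM lungs, which received no fibre, all 6 members had lower means at 12 months than at 1 month, without passing the test. These differences ran from -0.58 (Lrrn4) to -0.08 (Wt1), with Msln at -0.39 ± 0.27 and a median of -0.295 (all genes 0.002). Each member's difference turned sign in at least 1 of the alternatives described below, with Msln from -0.84 to 0.171 and Lrrn4 from -1.108 to 0.153. The members vary together, so their shared direction is not 6 separate observations. For 6 against 1, 12 against 1 and 12 against 6 months 0 of 6 members passed, against 0.135%, 1.12% and 0.239% of all genes, and 1, 0 and 0 had an unadjusted p under 0.05 (9.31%, 11.7% and 12.5% of all genes).

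A list of 9 further mesothelial genes was also read, all 9 of them measured. The list's mean level correlated over mice within groups with Msln at 0.884, Upk3b at 0.842, Lrrn4 at 0.822, Gpm6a at 0.721, Upk1b at 0.615 and Wt1 at 0.602. In 3 of its genes the relation was weak or turned: Calb2, the calretinin gene used as a mesothelioma marker in humans, was at -0.28 with Msln, Itln1 at 0.214 and Has1 at 0.376. With 80 µg 3 of 9 rose over the mean of the 3 times (median 0.183, all genes -0.01), in a comparison where 5.63% of all genes passed. These were Muc16, the mucin that binds mesothelin (0.53 ± 0.17, adjusted p = 0.0442), Itln1, a lectin (0.52 ± 0.13, adjusted p = 0.00552), and Has1, a hyaluronan synthase (0.36 ± 0.11, adjusted p = 0.0278). With crocidolite 1 rose and 1 fell (median -0.116, all genes -0.011), a share not far from the 16.2% of all genes that passed. Itln1 rose by 1.68 ± 0.14 (adjusted p = 1.28e-19), and at 1, 6 and 12 months by 1.72, 1.25 and 2.05. Nkain4, a membrane protein that interacts with the sodium pump, fell by 0.36 ± 0.11 (adjusted p = 0.00788). By dose over the 3 times 4 of 9 rose, where 8.88% of all genes passed, with slopes of 0.083 for Muc16, 0.070 for Itln1 and 0.059 for Has1 and for Aldh1a2, a retinoic acid synthesis enzyme. Bnc1, Rspo1, Cldn15 and Calb2 passed in none of the comparisons with DM at 80 µg or with crocidolite, nor in the slopes.

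Of the 4 keratins that mesothelium shares with other simple epithelia, 3 were higher with crocidolite, and Krt7 did not pass (0.17 ± 0.14, adjusted p = 0.462). In the list of 6 genes that holds them, 3 were higher and 1 lower over the mean of the 3 times (median 0.347, all genes -0.011), where 16.2% of all genes passed. Krt18 was 0.47 ± 0.09 higher (adjusted p = 3.63e-05), Krt8 0.44 ± 0.08 (adjusted p = 1.04e-05) and Krt19 0.43 ± 0.08 (adjusted p = 3.21e-05), while Thbd, the thrombomodulin gene of endothelium and mesothelium, was at -0.46 ± 0.07 (adjusted p = 5.79e-08). With 80 µg Krt8 (0.35) and Krt18 (0.35) rose and Thbd fell by 0.20. These genes are also those of airway and alveolar epithelium. Their list correlated with Gpm6a at 0.713, with Msln at 0.609, Upk3b at 0.49, Lrrn4 at 0.423, Upk1b at 0.257 and Wt1 at 0.138.

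Among 7 measured relatives of the members 1 rose and 2 fell over the mean of the 3 times with crocidolite (median -0.139, all genes -0.011), where 16.2% of all genes passed. Lrrn3, a relative of Lrrn4, fell by 0.80 ± 0.10 with crocidolite and by 0.43 ± 0.09 with 80 µg (adjusted p = 2.59e-11 and 0.000593). Gpm6b, a relative of Gpm6a, fell by 0.27 ± 0.05 and by 0.19 ± 0.05 (adjusted p = 5.01e-05 and 0.00935). Upk3a rose by 0.22 ± 0.08 with crocidolite (adjusted p = 0.0422). Of 7 measured genes that are tumour suppressors in human mesothelioma, 1 passed with crocidolite, a share near the 16.2% of all genes that did, and so no result about the list. It was Lats2, a kinase of the Hippo pathway, at -0.34 ± 0.06 (adjusted p = 6.35e-06). The remaining 6, Bap1, Nf2, Cdkn2a, Cdkn2b, Setd2 and Lats1, passed in none of these comparisons.

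The 10 genes most like Msln over all mice, by correlation of values minus group means, were Aldh1a2 (0.883), Upk3b (0.871), Cldn15 (0.856), Chst4 (0.84), Lrrn4 (0.839), Muc16 (0.805), Pkhd1l1 (0.791), Bnc1 (0.787), Cfb (0.771) and Slurp1 (0.746). Of these 5 were past the test for the mean dose slope like Msln, where 8.88% of all genes passed. The 10 were picked for moving with Msln in the same mice, so their slopes are not independent of that of Msln. Cfb, complement factor B, had a slope of 0.131 (adjusted p = 2.28e-13), Pkhd1l1, a large membrane protein, of 0.104 (adjusted p = 0.00028), and Slurp1 of 0.096 (adjusted p = 0.00712), beside Muc16 and Aldh1a2. Cfb was the one of the 10 that also passed with crocidolite (0.748 ± 0.113, adjusted p = 5.98e-08), where 16.2% of all genes did. Chst4, Cldn15 and Bnc1 had slopes of 0.009, 0.023 and 0.011 and did not pass. Over the 18 group means the genes most like Msln were Met (0.869), Fam180a (0.868), Cftr (0.856), Ddias (0.847) and Oas1g (0.839), none of which is among the 10.

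Gpm6a had a different company. The genes most like it were Nt5e (0.829), Slc6a14 (0.8), Cldn18 (0.79), Fgf18 (0.781) and Igfbp2 (0.778), and it correlated at 0.759 with the list of alveolar type 1 genes, to which Cldn18 belongs. This was above its correlation of 0.735 with Upk3b, its closest member, so Gpm6a was not particular to mesothelium in these lungs. The alveolar type 1 list correlated with Msln at 0.421, with Upk3b at 0.355, with Lrrn4 at 0.302, with Upk1b at 0.029 and with Wt1 at -0.008. Wt1 was closest to Pkhd1l1 (0.718), Cldn15 (0.66), Upk3b, Lrrn4 and Igfbp5 (0.631), and Upk1b to Cldn15 (0.661), Pkhd1l1 (0.646), Gpc3 (0.638), Tm4sf1 (0.617) and Lmo4 (0.602). Upk3b and Lrrn4 shared Aldh1a2, Cldn15, Chst4 and Msln among their closest 5. Genes measured on the same arrays share array quality and tissue composition.

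Genes of other cell types moved with the exposures. At single times 0.176% to 6.47% of all genes passed with 80 µg or crocidolite. The macrophage list (Mmp12, Gpnmb, Trem2, Ctsk and Cd68) rose in 5 of 5 genes with crocidolite and with 80 µg at each time. Its mean level at 1 month was 8.26 to 9.72 with crocidolite and 7.93 to 9.42 with 80 µg, against 5.91 to 6.25 with DM. At 6 months it was 7.25 to 8.75 and 6.10 to 9.31, against 5.74 to 6.20 with DM, and at 12 months 8.31 to 9.46 and 7.50 to 8.30, against 5.84 to 6.22 with DM. Within groups that list correlated with Msln at 0.171 and with Upk1b at -0.188, and its part in the differences was not tested. Alveolar type 2 genes were higher in 4 of 5 with crocidolite and 3 of 5 with 80 µg over the mean of the 3 times, and their list correlated with Msln at 0.387. Endothelial genes were lower in 5 of 5 with crocidolite and 1 of 5 with 80 µg, cardiac muscle genes in 6 of 6 and 0 of 6, lymphocyte genes in 4 of 5 and 2 of 5, and fibroblast genes in 6 of 12 (1 higher) and 3 of 12. Among adipose genes 1 of 4 and among club cell genes 1 of 3 were lower with crocidolite, and none with 80 µg. Of all genes 16.2% passed in these means with crocidolite and 5.63% with 80 µg, so a single called gene is no result about its list. No skeletal muscle, squamous epithelium or alveolar type 1 gene passed in these means. The adipose list correlated with Wt1 at 0.499 and with Lrrn4 at 0.344, against 0.091 with Msln. The club cell list correlated with Upk1b at 0.416, against 0.108 to 0.301 with the other members. At 1 month 2 of 3 club cell genes were lower with crocidolite, where 5.76% of all genes passed. The part of these tissues and cells in the differences was not tested.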

How the data were processed

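Lung RNA was measured on 139 Affymetrix arrays of 138 mice. The authors deposited log2 intensities. RMA, oligo and limma are named per the submitters' processing notes, with versions and roles not given in the sources used here, nor is a genome build. Values ran from -0.05 to 13.28, with array medians of 4.01 to 4.34. Of 41345 features, 23521 were paired with 1 symbol in the platform annotation, 1814 with several and 16010 with none. The feature of highest mean was kept per gene (1341 set aside), leaving 22180 genes. No per-sample column was left out.

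One limma (3.58.1, R 4.3.3) model with a mean per group (120 residual degrees of freedom, empirical Bayes) gave all contrasts, two-sided, with Benjamini-Hochberg adjustment over all genes at 0.05. Dose slopes are per doubling of the MWCNT dose after adding 1 µg. The model was tested on simulated data. Correlations are of values minus group means. Msln minus Upk3b was added after the values were seen. Promoters are RefSeq's (GRCm38.p6). Groups come from the source names; mice are separate animals by number, and replicate numbers follow deposition order and pair nothing. The number of arrays limits precision.

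Named genes are the 6 members, the 10 genes most like Msln and 5 most like each other member, 5 by group means, and up to 3 called genes per list (15 lists, 89 of 95 genes measured), with remaining genes of the mesothelial and tumour suppressor lists named to complete their counts. Members and lists were chosen with earlier results of these data known. Alternatives were scalings, filters, covariates, array subsets, moderation, the mouse with 2 arrays (averaged here and counted once, as its 2 arrays share 1 mouse number) taken as either array or as 2 mice and leaving out mice. Software further included Python 3.11.15, pandas 2.3.3 and matplotlib 3.10.9.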

Additional observations from a re-analysis of the deposited data

Results flagged for a closer look

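Over all members and groups, 6 sets held a mouse far below the others of its group by Dixon's criterion at the 95% level, and chance flags about 1 in 20 such sets. Msln was at 6.046 in the 40 µg lung of replicate 2 at 1 month, below the next lowest at 6.892. Lrrn4 was at 4.237 in the same lung, against 5.104 for the next lowest. Upk3b (5.837, next 7.608) and Gpm6a (6.132, next 8.251) stood low together in replicate 6 of the 10 µg group at 6 months. Wt1 was at 3.877 in replicate 5 of the crocidolite group at 12 months, against 4.713 for the next lowest, and that mouse was the lowest of its group in 6 of 6 members. Gpm6a was at 6.948 in replicate 6 of the crocidolite group at 6 months, against 7.893 for the next lowest. All 6 flags were low values, and none was in a DM or 80 µg group, though flags this few and near the chance rate show no pattern by group. No change of an exposure effect with time passed the test in any of 24 member interactions (smallest adjusted p 0.793).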

How the results depend on the processing

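No direction called in the main fit turned under any alternative. Upk3b, whose mean slope of 0.004 was not called, was called lower with the other members as a covariate (limma adjusted p = 0.000723). The Msln difference with 80 µg at 12 months, which was not called, ran from -0.164 to 1.154. The count of members past the test (of 6) changed with crocidolite at 1 month, where 1 became 0 in arrays without or with the word replacement, with array weights, without the 10 arrays of low correlation, without arrays with other tissue and with only the groups compared. Leaving out 1 mouse gave 0 to 3 there, 3 without crocidolite replicate 2 and 0 without replicate 4 or 5. With 80 µg at 6 months 0 became 1 with quantile normalization, median centring, replacement as a covariate, array number as a spline, array weights and the other members as a covariate, and leaving out 1 mouse gave 0 to 1 (1 without 80 µg replicate 7). With crocidolite at 12 months 0 became 1 with replacement or the other members as a covariate, and 0 to 1 when a mouse was left out (1 without DM replicate 1 or 6 or crocidolite replicate 5). The other members as a covariate also gave 1 in place of 0 with 80 µg at 1 month, with crocidolite at 6 months and for the slopes at 1 and 12 months. They gave 2 in place of 1 for the mean 80 µg difference and the mean slope, in each 1 higher (Msln) and 1 lower. The lower member was Upk1b with 80 µg and Upk3b for the slope. For members other than Msln that covariate holds Msln, itself higher after exposure, so these lower calls are not independent of Msln. Arrays without replacement gave 1 in place of 0 for the 12-month slope, 2 in place of 1 for the mean slope and 0 in place of 2 for the mean crocidolite difference. The count for the mean crocidolite difference was 1 without arrays with other tissue and 3 with the other members as a covariate, where the added member was lower. Leaving out a mouse gave 1 to 2 for that difference, by 15 mice: with crocidolite, replicates 1 and 2 (1 month), 1, 3, 7 and 8 (6 months) and 1 and 3 (12 months); with DM, replicate 6 (1 month), 5, 6 and 7 (6 months) and 5, 7 and 8 (12 months). Each time Msln lost its call and Upk1b did not. Array number as a spline also ended that call of Msln (0.413, adjusted p = 0.0646).

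Msln minus Upk3b lost its call with Aldh1a2 in place of Upk3b for 80 µg at 6 months (0.238, exact permutation test, adjusted p = 0.0805), and with Lrrn4 in place of Upk3b for 80 µg at 12 months (0.36, exact permutation test, adjusted p = 0.0636). In arrays without replacement it was 0.423 and 0.566 for 80 µg at 6 and 12 months and 0.559 and 0.719 for crocidolite at 1 and 12 months, with adjusted p from 0.0643 to 0.0667 by the exact permutation test, where 2 crocidolite lungs against 4 DM lungs cannot go below 0.0667. These settings were chosen after seeing the data. The cause of these changes was not tested. No paired analysis was possible because replicate numbers were given in deposition order. Correlations moved by up to 0.14 under centring (lowest 0.25, highest 0.874).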
